A study of Mus musculus with 32 samples.

Results

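Control Kupffer cells (KC) were compared with control liver endothelial cells (EC) in 8 of the 32 samples of the series, 4 samples of each, chosen by their titles. The question was how the mRNA of these 2 cell fractions of the tumor-free liver differed. Both came from male Balb/c mice, 6 to 8 weeks old, that had received PBS into the spleen 14 days earlier. The series also holds control Ito cells, the same 3 cell types from livers with C26 metastases, primary tumors and liver metastases. Per the methods of the study, the liver was digested with collagenase, parenchymal cells were spun out and the endothelial fraction was taken from a Percoll gradient. Kupffer cells were separated from the endothelial and Ito fractions by adherence, and all fractions were kept in culture medium with serum for up to 24 h. The fractions were therefore cultured enrichments and not sorted cells. The p-values rest on a spread between samples that was pooled over all 32 samples of the series. These include the Ito cells, tumors and metastases. The labels do not say from which mouse a sample came, so that part of this spread may be technical.

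Kupffer cells are the macrophages that live inside the liver sinusoids, attached to the endothelium. They take up particles, microbes and aged red cells from the portal blood through scavenger, lectin, complement and Fc receptors. Sinusoidal endothelial cells form the wall of the same vessels. They are fenestrated, have an efficient receptor-mediated endocytosis, and are a known source of coagulation factor VIII and of Wnt and Bmp signals for hepatocytes. The cell types also share some receptors, so that a gene of uptake is not by itself a marker of either.

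Every value below is a log2 intensity of 1 probe, normalized between channels by the authors. The probes of 3 markers are printed as examples, each 60 bases long and written 5′ to 3′ as in the array files. They are the probe of Clec4f, a lectin of Kupffer cells, at chr6:83595281-83595339 on the minus strand (mm9, an interval 1 base shorter than the probe), that of Pecam1, a junction protein of endothelial cells, at chr11:106540864-106540923 on the minus strand, and the dimmer of the 2 probes of Mcam (CD146), an endothelial adhesion protein, at chr9:43949385-43949444 on the plus strand.
Clec4f: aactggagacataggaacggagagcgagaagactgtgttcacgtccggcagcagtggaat
Pecam1: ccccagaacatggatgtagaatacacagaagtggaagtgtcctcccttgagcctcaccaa
Mcam: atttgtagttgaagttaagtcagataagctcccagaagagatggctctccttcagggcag

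Not all channels were independent or alike. Over the 432 probes with several spots, EC replicates 1 and 4 differed by 0.982 times the noise between spots of a single array, and EC replicates 2 and 3 by 0.711 times, while the other EC pairs differed by 2.93 to 3.63 times. KC replicates 1 and 2 differed by 1.21 times that noise. Channels that differed by little more than the spot noise were averaged and counted as 1 sample, which left n = 2 for EC and n = 3 for KC. The choice was made after seeing the data. Calls are therefore given from all 4 channels a group and again with these channels averaged, and a mean ± SD below uses the averaged channels. KC replicate 3 stood apart from the other KC channels, with Pearson r of 0.9458 to 0.9553 across 20108 probes, and 18.6% of 11616 genes differed by more than 2-fold between it and the mean of KC replicates 1 and 2. KC replicate 4 differed by more than 2-fold from that mean in 6.83% of the genes. This channel, labelled a control, correlated at 0.9961, 0.9959 and 0.9943 with replicates 1 to 3 of the Kupffer cells from livers with metastases (KT) and at 0.9825 with KC replicate 1, whereas KT replicate 4 correlated at 0.9961 with KC replicate 1. KC replicate 4 and KT replicate 4 lay on the same array, in different dyes. Whether these labels were exchanged cannot be settled from the labels. The counts of calls are therefore also given without KC replicate 4 for most lists. A gene's call below held without that channel unless the text says that it was lost. All EC channels lay on slide 1 and all KC channels on slide 2, each scanned once, so that the slide and the cell type cannot be told apart. As labelled, both groups carried the dye Cy3. Between 44.6% and 57.1% of the spots of a channel were well above background, the lowest share being that of KC replicate 3, and no spot was saturated.

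**Figure D1:**
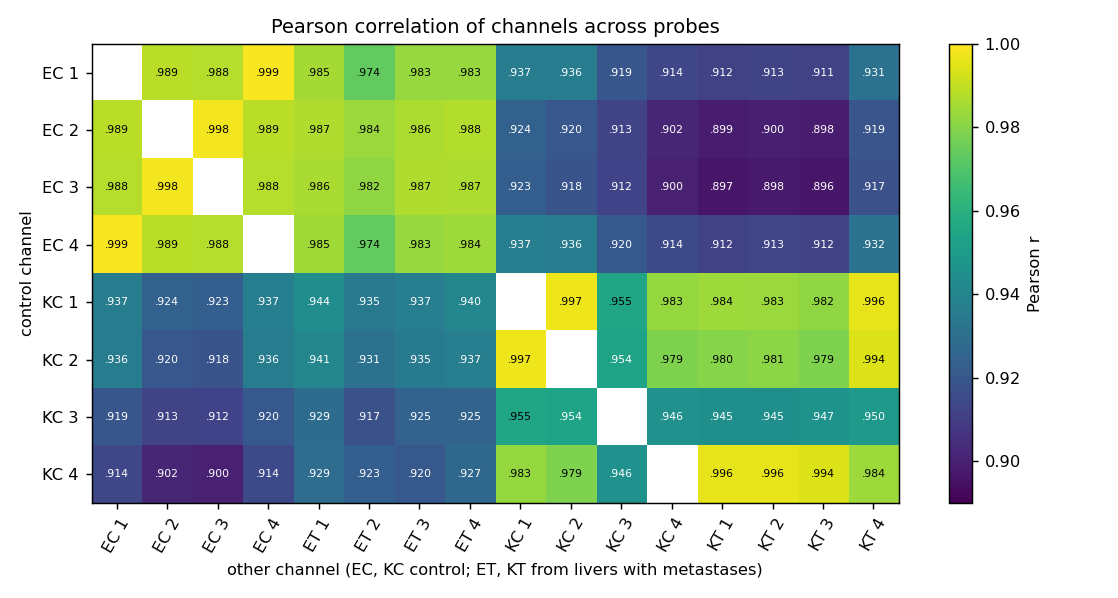
Pearson correlation of each control EC and KC channel (rows) with the EC and KC channels and with those of the same cell types from livers with metastases (ET and KT, columns), across 20108 probes. EC replicates 1 and 4, EC replicates 2 and 3, and KC replicates 1 and 2 form the closest pairs, KC replicate 4 is closest to KT replicates 1 to 3, and KC replicate 3 is at or below 0.9553 with every other KC channel.

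A probe was called at an adjusted p under 0.05 (limma, Benjamini-Hochberg over 55681 probes) and a difference of at least 2-fold. Of all probes, 3486 (6.26%) were called higher and 3483 (6.26%) were called lower in KC. Of the 19160 genes with a name, each read from its brightest probe, 1606 (8.38%) were called higher and 1716 (8.96%) lower. With the near-identical channels averaged, 948 genes (4.95%) were called higher and 887 (4.63%) lower. Without KC replicate 4 the counts were 1470 (7.67%) and 1551 (8.09%), and without KC replicate 3 they were 1746 (9.11%) and 1682 (8.78%). In all of these settings the same 879 genes were called higher and the same 722 lower. With channels averaged and KC replicate 4 left out together, 630 of the genes called higher and 557 of those called lower kept their call. A call that held under each step alone need not hold under both. Of all 19160 genes, 15.9% had every KC channel above every EC channel, and 22.5% had every KC channel below every EC channel. The median difference over all genes was -0.05 and 77.8% of the genes lay within 2-fold. These shares are the background for the list counts below that come from the same setting. No share of all named genes was taken at an unadjusted p, for other tests or for other fits. List counts from those settings have no background here and only describe the list. A fit of the 8 channels alone, which takes the spread from EC and KC only, called 3496 probes higher and 3480 lower.

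**Figure D2:**
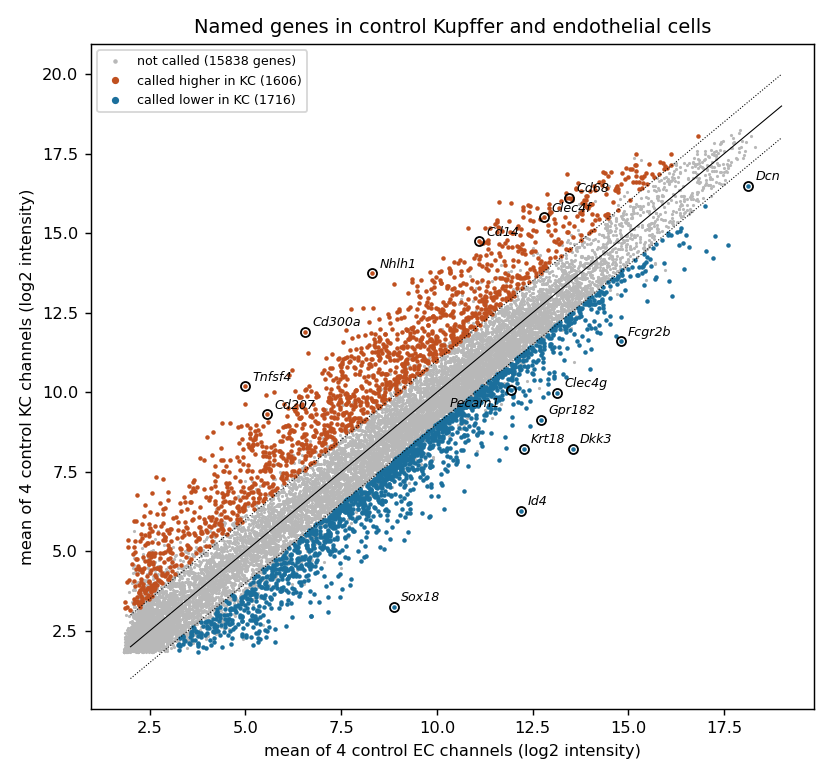
Mean log2 intensity of the 4 control KC channels (y axis) against that of the 4 control EC channels (x axis) for 19160 named genes, with genes called higher in KC in orange, genes called lower in blue and dotted lines at a 2-fold difference. Most genes lie along the diagonal, with Nhlh1, Cd300a and Tnfsf4 far above it and Id4 and Dkk3 far below it. Sox18 also lies far below, at a KC level that is not well above background.

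The mRNA of the given markers, and of the proteins stained for purity in the study, separated the fractions in part. The study reported a high purity of all fractions from the staining, and the protein was not measured here. Clec4f stood at 12.81, 12.82, 12.80 and 12.79 in EC replicates 1 to 4 and at 15.70, 15.58, 14.47 and 16.30 in KC replicates 1 to 4. Every KC channel was above every EC channel, the difference was 2.71 ± 0.62 (SE; 6.52-fold), and the adjusted p was 0.00192 (2.44 and 0.0102 without KC replicate 4). With near-identical channels averaged, the means were 12.81 ± 0.01 (SD, n = 2) in EC and 15.47 ± 0.92 (SD, n = 3) in KC, and the adjusted p was 0.099. Vsig4, a complement receptor of resident macrophages, lay between 10.42 and 10.73 in EC and between 11.53 and 13.68 in KC. The groups did not overlap, but the difference of 2.17 ± 0.84 did not pass the test (adjusted p = 0.0674, 0.398 averaged and 0.173 without KC replicate 4). In the fit of the 8 channels alone, Vsig4 was called higher (adjusted p = 0.00883). Cd68, a lysosomal glycoprotein of macrophages, lay between 13.43 and 13.50 in EC and stood at 16.38, 16.27, 15.43 and 16.39 in KC. It was 6.32-fold higher in KC (2.66 ± 0.29, adjusted p = 2.43e-07, and 0.00144 averaged), and its second probe gave 2.75.

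Pecam1 stood at 11.95, 11.90, 11.90 and 11.96 in EC and at 10.34, 10.13, 9.56 and 10.21 in KC. It was 3.65-fold lower in KC, with no overlap (-1.87 ± 0.40, adjusted p = 0.00107, and 0.0644 averaged; -1.92 without KC replicate 4). The 3 probes of Stab2, a scavenger receptor of sinusoidal endothelium, did not point the same way. The brightest probe differed by 0.31 (adjusted p = 0.646) and the others by -0.80 (adjusted p = 0.121) and -1.02 (adjusted p = 0.0646). The 2 probes of Mcam opposed each other. The dimmer one, printed above, stood between 5.11 and 6.01 in EC and between 4.32 and 4.61 in KC, where 3 channels were well above background, and was called lower (-1.07, adjusted p = 0.0398), while the brighter one lay between 14.46 and 14.90 in EC and between 15.83 and 16.73 in KC and was called higher (1.66 ± 0.25, adjusted p = 1.58e-05). The brighter probe holds a run of 20 bases in which 2 bases alternate, against a median of 4 over all probes, and 88 of 55681 probes hold a run that long. Acta2, the smooth muscle actin of activated stellate cells, lay between 7.88 and 9.30 in EC and between 5.79 and 7.44 in KC (-2.31 ± 1.00, adjusted p = 0.112). It was not called, except in the fit of the 8 channels alone, which called it lower (adjusted p = 0.0144).

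**Figure D3:**
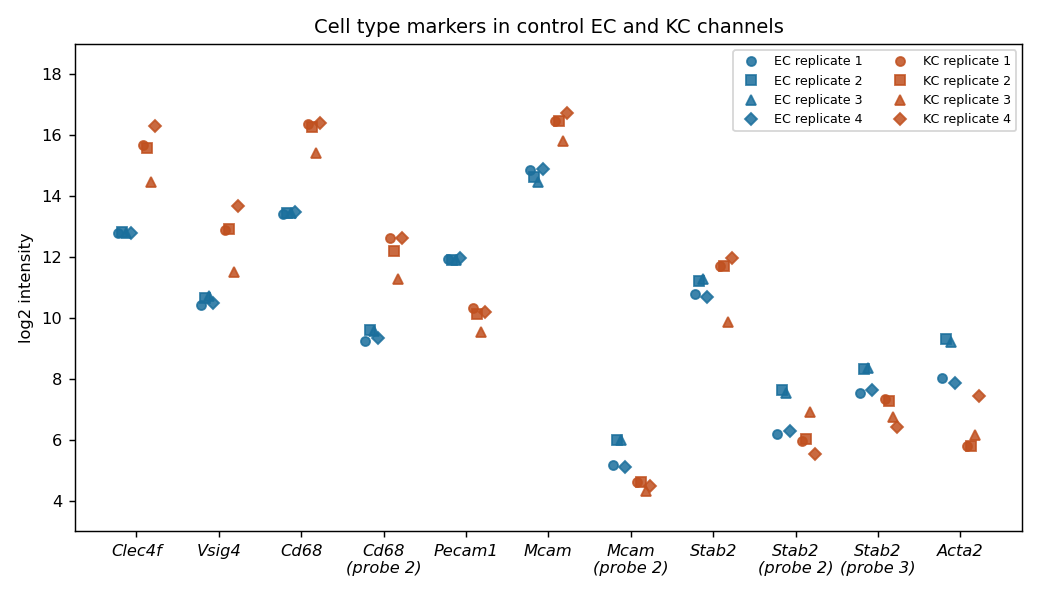
Log2 intensity of the 7 marker genes in each of the 4 control EC channels (blue) and 4 control KC channels (orange), with the symbol giving the replicate number and every probe of a gene shown in a column of its own. Clec4f, Vsig4 and Cd68 lie higher in all KC channels and Pecam1 lower, while the probes of Mcam and of Stab2 disagree.

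The genes that mark Kupffer cells and macrophages were higher in KC as far as they were called. Of 46 genes in the lists of Kupffer identity and macrophage lineage, 29 were called higher and 0 lower, against 8.38% and 8.96% of all genes, and the median difference was 2.37. With near-identical channels averaged 11 were called, without KC replicate 4 there were 21, and without KC replicate 3 there were 31. No gene of these lists was called lower in any of these settings; at an unadjusted p under 0.05 the count was 1 lower and 33 higher, and the methods' t-test called 0 lower and 34 higher. The same genes were measured in EC too, where 43 of the 46 were well above background in all 4 channels. In such fractions, fewer cells of a type and less RNA per cell cannot be told apart.

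Of the 16 genes of Kupffer identity, 9 were called higher (2 averaged, 7 without KC replicate 4, 2 with both steps), with a median of 2.21. Cd207, the lectin langerin, stood at 5.03, 5.91, 6.04 and 5.26 in EC and at 9.96, 9.94, 9.05 and 8.30 in KC. It was 13.5-fold higher in KC (3.76 ± 0.67, adjusted p = 0.000156, and 0.0317 averaged), lowest in KC replicate 4 and highest in KC replicates 1 and 2. Cd163, the receptor for haemoglobin bound to haptoglobin, was not well above background in any EC channel (2.02 to 2.11) and stood between 3.95 and 5.18 in KC. It was at least 1.3-fold higher in KC (adjusted p = 2.19e-06, and 0.00167 averaged). Fabp7, a fatty acid-binding protein, lay between 8.67 and 9.06 in EC and between 11.06 and 13.03 in KC (3.17 ± 0.77, adjusted p = 0.00346, and 0.109 averaged). Folr2, a folate receptor of resident macrophages, rose from between 11.83 and 12.15 in EC to between 14.13 and 15.81 in KC (3.00 ± 0.92, adjusted p = 0.0186), but its call was lost without KC replicate 4 and with averaged channels (adjusted p = 0.244). Spic, a transcription factor of macrophages that recycle iron from red cells, was 4.73-fold higher (2.24 ± 0.66, adjusted p = 0.0142, and 0.211 averaged). Cd5l, a protein that macrophages secrete, stood at 15.59, 15.55, 15.06 and 18.10 in KC and between 14.46 and 15.13 in EC. It was not called (adjusted p = 0.379), and only the channel labelled KC replicate 4 stood clear of the EC range by more than 2-fold. Id3 (0.37) and Il18bp (-0.10) were bright in both fractions and not called.

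Of the 30 genes of the macrophage lineage, 20 were called higher (9 averaged, 14 without KC replicate 4, 5 with both steps), with a median of 2.42. Cd14, the co-receptor for lipopolysaccharide, stood at 11.25, 10.93, 10.95 and 11.28 in EC and at 14.84, 14.78, 14.66 and 14.71 in KC. Its KC channels were close together, replicate 3 included, and it was 12.5-fold higher (3.65 ± 0.31, adjusted p = 3.29e-09, and 0.000114 averaged). Sfpi1, which encodes the macrophage transcription factor PU.1, stood at 6.92, 7.32, 7.24 and 7.11 in EC and at 10.73, 10.23, 10.41 and 11.13 in KC (3.48 ± 0.45, adjusted p = 2.79e-06, and 0.00404 averaged). The Fc receptors Fcgr4 and Fcgr1 were 10.9-fold and 10.6-fold higher, with averaged adjusted p of 0.0377 and 0.0491. Siglec1, a sialic acid-binding receptor of tissue macrophages, lay between 10.41 and 10.82 in EC and between 13 and 15.05 in KC and was 11.7-fold higher (adjusted p = 0.000278, and 0.044 averaged). Emr1, an adhesion receptor used as a marker of mouse macrophages, lay between 10.31 and 10.94 in EC and between 11.68 and 13.95 in KC. The groups did not overlap, yet its difference of 2.32 ± 0.99 did not pass (adjusted p = 0.104), and its lowest and highest KC values were those of replicates 3 and 4. Lyz1 (2.25, adjusted p = 0.0625) and Fcer1g (1.96, adjusted p = 0.0673), a lysozyme and the signaling chain of Fc receptors, were also not called. In the fit of the 8 channels alone, Emr1, Lyz1 and Fcer1g were called higher (adjusted p = 0.0101, 0.00827 and 0.00524).

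Of the 10 genes of C1q and complement receptors, a list that also holds C3, 6 were called higher in KC and 0 lower, with a median of 2.28 (6 and 0 without KC replicate 4). With averaged channels only C3ar1 was called, and with KC replicate 4 left out as well 0 were called. C3ar1, the receptor for the C3a fragment, lay between 8.67 and 8.87 in EC and stood at 12.35, 11.97, 11.77 and 12.62 in KC (3.41 ± 0.60, adjusted p = 0.000127, and 0.027 averaged). C3 stood at 12.30, 12.18, 12.13 and 12.39 in EC and at 16.66, 16.65, 13.63 and 16.01 in KC. All KC channels were above EC, replicate 3 by the least, and the difference was 3.48 ± 0.87 (adjusted p = 0.00417, and 0.171 averaged). C5ar1, the receptor for C5a, was 10.2-fold higher (adjusted p = 0.00431, and 0.0836 averaged). The C1q chain C1qb was 5.20-fold higher (adjusted p = 0.00073, and 0.054 averaged), whereas C1qc, bright in both fractions, was not called (1.82 ± 0.92, adjusted p = 0.183). In the fit of the 8 channels alone, C1qc was called higher (adjusted p = 0.00446). Itgax, which encodes the complement receptor subunit CD11c, was 4.71-fold higher (adjusted p = 0.00372, and 0.158 averaged). The serine protease components Cfb and C2 differed by -0.07 and -0.46 and were not called; in both, KC replicate 3 was the lowest channel.

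Among 22 scavenger and lectin receptors, 8 were called higher and 4 lower, with a median of 0.57 (7 and 4 without KC replicate 4). With averaged channels 1 was called higher, Cd163, and all 4 lower calls held. Cd209f, a C-type lectin of the SIGN family, stood at 4.77, 4.85, 4.97 and 4.61 in EC and at 9.61, 9.69, 8.68 and 7.68 in KC. It was 17.4-fold higher (4.12 ± 0.87, adjusted p = 0.00089, and 0.0812 averaged), and its relative Cd209g was 12.2-fold higher (adjusted p = 0.000489, and 0.061 averaged). In both, the channel labelled KC replicate 4 was the lowest of the KC channels, and the differences without it were 4.53 and 3.97. Clec4e, the receptor Mincle for mycobacterial and fungal glycolipids, and Clec4d, its partner, were 11.1-fold and 9.41-fold higher, with averaged adjusted p of 0.0815 and 0.158. On the other side, Clec4g, a lectin of sinusoidal endothelium, stood at 13.15, 13.11, 13.18 and 13.13 in EC and at 10.38, 10.19, 10.08 and 9.31 in KC. It was 8.91-fold lower in KC (-3.16 ± 0.50, adjusted p = 3.98e-05, and 0.0121 averaged). The other lower calls were Clec1b (-2.90), Scarb2 (-1.84) and Cd209a, whose probe was not well above background in any channel of either group. Mrc1, the mannose receptor, lay between 12.36 and 12.95 in EC and between 8.81 and 10.72 in KC, with no overlap but no call (-2.53 ± 1.07, adjusted p = 0.1). Msr1 (1.69, adjusted p = 0.201) and Stab1 (-1.25, adjusted p = 0.235), both scavenger receptors, were not called either. The fit of the 8 channels alone called 9 genes of this list higher and 6 lower. There Mrc1 and Stab1 were called lower (adjusted p = 0.00582 and 0.0155) and Msr1 higher (adjusted p = 0.00266).

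Of 18 genes of pattern recognition and inflammation, 9 were called higher and 0 lower, 7 and 0 with averaged channels and 8 and 0 without KC replicate 4. With channels averaged and KC replicate 4 left out as well, 3 and 0 were called. Nod2, the cytosolic sensor of muramyl dipeptide, stood at 8.33, 7.87, 8.04 and 8.46 in EC and at 11.31, 11.60, 11.18 and 11.57 in KC. The channels of each group were close together, and Nod2 was 9.45-fold higher (3.24 ± 0.18, adjusted p = 2e-12, and 1.22e-06 averaged). Tlr8 and Tlr7, endosomal receptors for single-stranded RNA, were 9.79-fold and 5.41-fold higher, with averaged adjusted p of 0.0126 and 0.019. Nlrp3, the sensor of an inflammasome, was 6.02-fold higher (adjusted p = 5.46e-07, and 0.0014 averaged). Ptgs2, the inducible cyclooxygenase, stood at 9.92, 7.60, 7.56 and 9.77 in EC and at 12, 12.18, 10.90 and 11.53 in KC. EC replicates 1 and 4 stood well above EC replicates 2 and 3, and every KC channel stood above both pairs (2.94 ± 0.53, adjusted p = 0.000167, and 0.0246 averaged). Tlr2, a receptor for bacterial lipoproteins, was -0.81 and not called (adjusted p = 0.52), nor were Nod1 (-0.26) and Casp1 (1.18, adjusted p = 0.0598). Of these, the fit of the 8 channels alone called Casp1 higher (adjusted p = 0.0401).

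Of 25 cytokines and chemokines, 9 were called higher and 1 lower in KC, with a median of 0.67 (8 and 1 without KC replicate 4). With averaged channels 2 of the higher calls and the lower one held. With KC replicate 4 left out as well, 0 were called in either direction. Ccl3, a chemokine of activated macrophages, stood at 11.53, 11.73, 11.58 and 11.49 in EC and at 15.35, 15.39, 14.92 and 15.69 in KC. It was 13.5-fold higher (3.75 ± 0.64, adjusted p = 9.02e-05, and 0.0259 averaged). Il10, an anti-inflammatory cytokine, stood at 7.97, 6.92, 6.92 and 7.91 in EC and at 11.22, 11.16, 10.34 and 11.50 in KC (3.62 ± 0.66, adjusted p = 0.000194, and 0.0304 averaged). Ccl4, the close relative of Ccl3, was 11-fold higher, the interleukin-1 family cytokine Il18 was 9.21-fold higher and Il1rn, the interleukin-1 receptor antagonist, was 9.03-fold higher. Their averaged adjusted p were 0.0788, 0.112 and 0.107. The gene called lower was Cxcl9, an interferon-induced chemokine, which stood at 17.71, 16.37, 16.22 and 17.81 in EC and at 14.55, 14.57, 14.74 and 13.85 in KC. It fell by 2.60 on the log2 scale and held averaged. Ccl2, Ccl7 and Cxcl10, chemokines for monocytes and T cells, were bright in both fractions, between 17.11 and 18.68, and differed by 0.12, 0.24 and -0.57 without a call.

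**Figure D4:**
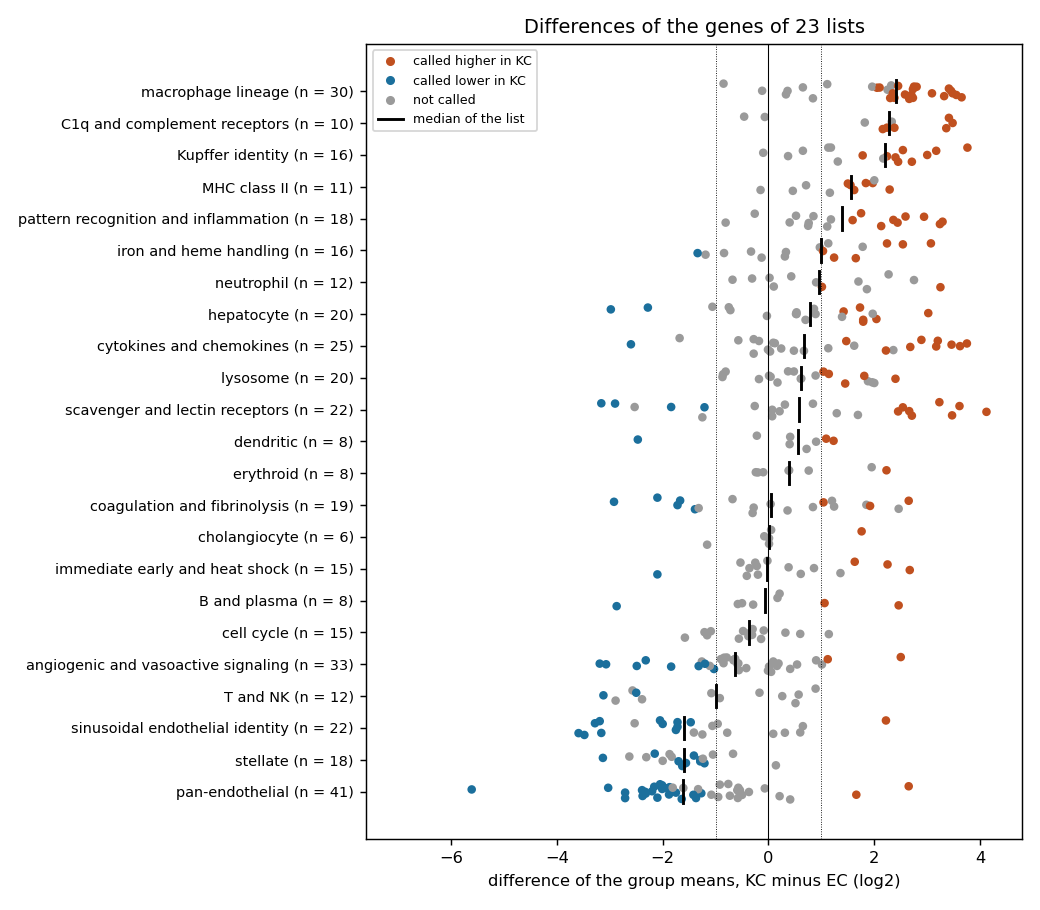
Difference of the group means (KC minus EC, log2, x axis) for every measured gene of 23 lists (rows, ordered by their median, black bar), with genes called higher in KC in orange, genes called lower in blue, genes not called in gray and dotted lines at 2-fold. The macrophage, complement, Kupffer and MHC class II lists lie mostly to the right, and the pan-endothelial, stellate and sinusoidal lists mostly to the left.

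Of 11 genes of MHC class II presentation, 6 were called higher and 0 lower, 3 and 0 with averaged channels and 5 and 0 without KC replicate 4. H2-DMa, which loads peptides onto class II molecules, stood at 8.16, 8.25, 8.05 and 8.36 in EC and at 10.77, 10.48, 10.01 and 10.73 in KC (2.29 ± 0.20, adjusted p = 9.2e-09, and 0.000163 averaged). H2-Eb1, a class II beta chain, was 2.93-fold higher (adjusted p = 2.42e-05, and 0.00567 averaged). Cd74, the invariant chain, was 3.93-fold higher and H2-Ab1, another class II beta chain, 3.07-fold higher, and both calls were lost without KC replicate 4 and with averaged channels (adjusted p = 0.302 and 0.32). Ciita, the transcriptional regulator of class II genes, was 0.71 and not called (adjusted p = 0.48). Of 20 lysosomal genes, 5 were called higher and 0 lower (1 averaged). Acp5, an acid phosphatase of macrophages and osteoclasts, was 5.26-fold higher (adjusted p = 0.00429, and 0.173 averaged), and the protease Ctsz was 3.5-fold higher (1.81 ± 0.22, adjusted p = 1.23e-06, and 0.00285 averaged). Lamp1, Ctsb and Lgmn, general lysosomal proteins, were bright in both fractions and differed by 0.17, 0.04 and -0.86 without a call. Without KC replicate 4, the lysosomal list gave 3 genes called higher and 2 lower.

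Of 16 genes of iron and heme handling, 6 were called higher and 1 lower, 3 and 1 averaged, and 5 and 1 without KC replicate 4. Slc11a1, the metal transporter of the phagosome, stood at 12.09, 12.09, 12.14 and 11.98 in EC and at 14.90, 14.67, 15.17 and 15.86 in KC. It was 8.42-fold higher, with KC replicate 4 the highest channel (3.07 ± 0.40, adjusted p = 2.59e-06, and 0.00277 averaged). Blvra, the biliverdin reductase that follows heme oxygenase, was 3.13-fold higher (adjusted p = 0.00374, and 0.128 averaged). Hfe, an MHC-like protein that takes part in the control of hepcidin, lay between 11.44 and 11.51 in EC and between 10 and 10.45 in KC. It was 2.54-fold lower (-1.34 ± 0.24, adjusted p = 0.000153, and 0.0328 averaged). The ferritin chain Ftl1 lay between 16.48 and 17.90 in both fractions and differed by 0.33 without a call.

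Of 63 genes in the sinusoidal and pan-endothelial lists, 33 were called lower and 3 higher in KC, against 8.96% and 8.38% of all genes, with a median of -1.61. With averaged channels 18 were called lower and 2 higher, and without KC replicate 4 there were 31 and 3. In KC, 56 of the 63 genes were well above background in all 4 channels.

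Of 22 sinusoidal genes, 11 were called lower and 1 higher (7 and 0 averaged, 10 and 1 without KC replicate 4, 4 and 0 with both steps). The fit of the 8 channels alone called 14 lower and 1 higher. Oit3, a secreted protein of sinusoidal endothelium, stood at 11.80, 13.05, 13.05 and 11.79 in EC and at 9.14, 9.16, 8.70 and 8.74 in KC. It was 11.2-fold lower in KC (-3.48 ± 0.48, adjusted p = 5.75e-06, and 0.00465 averaged), and its 2 EC levels were those of the near-identical pairs. Gpr182, an endothelial chemokine-scavenging receptor, lay between 12.38 and 13.08 in EC and between 8.73 and 9.68 in KC and was 12.1-fold lower (adjusted p = 0.000849, and 0.0678 averaged). Ntn4, a netrin of the basement membrane, was 9.74-fold lower (adjusted p = 1.02e-05, and 0.00638 averaged). Fcgr2b, the inhibitory Fc receptor that clears immune complexes, stood at 14.74, 14.85, 14.84 and 14.78 in EC and at 11.52, 11.40, 11.36 and 12.16 in KC. It was 9.13-fold lower, opposite to Fcgr1 and Fcgr4 (-3.19 ± 0.86, adjusted p = 0.00766, and 0.179 averaged). The coagulation factor gene F8 was 3.29-fold lower (adjusted p = 0.0465) and lost its call without KC replicate 4, without KC replicate 3 and averaged. The single gene called higher was Il1a, a cytokine also counted above, at 2.22 (4.66-fold), which was lost averaged. Bmp2, a signal for hepcidin in hepatocytes, was -0.78 and not called (adjusted p = 0.153).

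Of 41 pan-endothelial genes, 22 were called lower and 2 higher (11 and 2 averaged, 21 and 2 without KC replicate 4, 6 and 1 with both steps). Sox18, a transcription factor of blood and lymph vessel formation, stood at 8.41, 9.30, 9.32 and 8.46 in EC. In KC it was not well above background in any channel, at 3.22, 2.45, 3.64 and 3.73, and was at least 7.73-fold lower (adjusted p = 2.12e-11, and 9.41e-07 averaged). The adhesion receptor Eltd1 stood at 8.80, 9.18, 9.06 and 8.83 in EC and at 6.38, 6.28, 4.96 and 6.14 in KC (-3.03 ± 0.36, adjusted p = 7.48e-07, and 0.0013 averaged). The C-type lectin Clec14a and the water channel Aqp1 were 6.56-fold and 6.54-fold lower, with averaged adjusted p of 0.0257 and 0.0382. The 2 genes called higher were Mcam, whose probes disagree as given above, and Vwf, the von Willebrand factor of large vessels and platelets. Vwf stood at 5.18, 5.83, 5.79 and 5.04 in EC and at 8.91, 8.88, 6.32 and 8.32 in KC. All KC channels were above EC, replicate 3 by the least (2.65 ± 0.44, adjusted p = 5.85e-05, and 0.0262 averaged). Cldn5 (-0.58), Egfl7 (-0.95) and Lmo2 (-0.76), a tight junction protein, a secreted endothelial factor and a hematopoietic and endothelial regulator, were bright in both fractions and not called.

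Promoters were read for both sets of lists because the calls of each lay mostly in a single direction. The table of RefSeq promoters (GRCm38.p6) gave a window for 37 of the 46 Kupffer and macrophage genes and for 38 of the 63 endothelial genes, and the 250 bases before the start were searched on both strands. The letters GAGGAA, the core bound by PU.1 and related ETS factors, were in 40.5% of the Kupffer and macrophage genes, in 47.4% of the endothelial genes and in 25.9% of all 27025 genes with a window. The letters TGANTCA of AP-1 were in 10.8%, 2.63% and 7.82%, and the letters AGATAA of GATA factors in 16.2%, 7.89% and 11.4%; none of the 3 motifs holds another, but their matches can overlap. The windows of Cd68 and Tie1 are printed as an example of each set, with GAGGAA on either strand and TGANTCA in capitals. Cd68 (chr11:69666171-69666420, minus strand) holds GAGGAA 225 bases and TGAGTCA 149 and 24 bases before its start. Tie1 (chr4:118489850-118490099, minus strand), an endothelial receptor kinase called lower at -2.38, holds TTCCTC, the reverse complement of GAGGAA, 218 bases before its start. A match describes the letters and is not a binding site.
Cd68: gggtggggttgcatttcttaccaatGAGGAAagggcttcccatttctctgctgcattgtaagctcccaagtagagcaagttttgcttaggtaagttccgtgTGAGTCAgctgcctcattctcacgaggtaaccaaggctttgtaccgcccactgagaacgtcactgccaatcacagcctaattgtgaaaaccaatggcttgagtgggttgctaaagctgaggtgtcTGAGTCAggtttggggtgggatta
Tie1: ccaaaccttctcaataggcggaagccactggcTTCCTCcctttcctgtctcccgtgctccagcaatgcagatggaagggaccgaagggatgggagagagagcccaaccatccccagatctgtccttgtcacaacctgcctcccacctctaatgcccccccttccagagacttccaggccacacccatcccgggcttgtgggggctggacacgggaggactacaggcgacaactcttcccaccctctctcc

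Vasoactive and angiogenic genes were mostly not called. Of 33, 8 were called lower and 2 higher, with a median of -0.63 (3 and 1 averaged, 5 and 3 without KC replicate 4). Dll4, the Notch ligand of arterial and sprouting endothelium, stood at 7.87, 7.01, 6.91 and 7.94 in EC and at 4.63, 3.37, 3.87 and 5.06 in KC (-3.19 ± 0.43, adjusted p = 4.33e-06, and 0.00141 averaged). Dll4 was well above background in only 2 KC channels. The growth factor Bmp4 was 8.39-fold lower (adjusted p = 2.42e-05, and 0.00577 averaged). The venous receptor Ephb4 lay between 12.87 and 12.97 in EC and stood at 9.99, 9.81, 11.94 and 9.94 in KC. It was 5.62-fold lower, and KC replicate 3 was the channel nearest to EC (adjusted p = 6.96e-06, and 0.00906 averaged). Sema3f, a guidance ligand, was 4.99-fold lower (adjusted p = 0.019, and 0.279 averaged). Pdgfb, a growth factor for pericytes and stellate cells, stood at 9.08, 9.96, 9.64 and 8.94 in EC and at 11.71, 11.74, 12.18 and 12.01 in KC. It was 5.66-fold higher (2.50 ± 0.40, adjusted p = 3.68e-05, and 0.0108 averaged), while Pdgfa was 0.90 and was called only without KC replicate 4, at 1.08. The other higher call was Vegfa, the main growth factor of endothelium, at 1.12 (2.18-fold), which was lost averaged. Angpt2 (-0.59) and Nrp2 (-0.85), a Tie2 ligand and a semaphorin and VEGF receptor, were not called.

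Of 19 genes of coagulation and fibrinolysis, 3 were called higher and 5 lower, with a median of 0.04 (2 and 2 averaged, 2 and 4 without KC replicate 4). F2r, the thrombin receptor, stood at 14.52, 14.87, 14.90 and 14.46 in EC and at 12.19, 12.07, 11.13 and 11.69 in KC, and was 7.55-fold lower (-2.92 ± 0.22, adjusted p = 6.85e-10, and 2.47e-05 averaged). Tfpi, an inhibitor of the tissue factor pathway, was 4.29-fold lower (adjusted p = 0.000421, and 0.02 averaged). Procr, the receptor for protein C, lay between 12.84 and 13.83 in EC and between 14.86 and 15.45 in KC and was 3.78-fold higher (adjusted p = 4.99e-05, and 0.0152 averaged).

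Markers of other cells moved with the comparison too. Of 18 stellate genes, 9 were called lower and 0 higher in KC, with a median of -1.60 (8 and 0 without KC replicate 4). With averaged channels 0 were called, 9 were lower at an unadjusted p under 0.05, and the methods' t-test on the 8 channels called 13 lower. In EC, 17 of the 18 were well above background in all channels. The mean level of the list lay between 10.26 and 10.69 in EC and between 8.69 and 8.98 in KC. The matrix proteoglycan Dcn stood at 18.22, 17.91, 18.08 and 18.31 in EC and at 16.67, 16.62, 16.40 and 16.30 in KC (-1.63 ± 0.41, adjusted p = 0.00463, and 0.118 averaged). Tagln, an actin-binding protein of contractile cells, stood at 15.41, 16.84, 16.93 and 15.40 in EC and at 13.56, 13.62, 12.38 and 12.53 in KC (-3.13 ± 0.85, adjusted p = 0.00799, and 0.125 averaged). Both were high in EC and above KC in every channel. Cygb and Rgs5, of stellate cells and pericytes, were 4.45-fold and 3.26-fold lower, while the collagens Col1a2 (-1.05) and Col3a1 (-2.0) were not called. The fit of the 8 channels alone called both collagens lower (adjusted p = 0.0108 and 0.00323). Without KC replicate 4, Col3a1 was called at -2.30 (adjusted p = 0.0396). Lrat, the enzyme that stores retinol as esters and that defines quiescent stellate cells, was well above background in 1 EC and 2 KC channels and differed by 0.14. The part of stellate cells in the endothelial differences was not tested.

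Of 20 hepatocyte genes, 6 were called higher and 2 lower, with a median of 0.78 (1 and 1 averaged, 6 and 1 without KC replicate 4). The difference was positive in 14 of the 20 and negative in 6. Apob, the apolipoprotein of liver lipoproteins, stood at 7.31, 6.94, 6.85 and 7.34 in EC and at 10.64, 10.62, 10.01 and 9.27 in KC (3.02 ± 0.56, adjusted p = 0.000228, and 0.0373 averaged). Cyp3a11, a xenobiotic P450 enzyme, stood at 9.90, 9.01, 8.94 and 9.86 in EC and at 8.29, 8.32, 6.18 and 5.82 in KC (-2.28 ± 0.57, adjusted p = 0.00398, and 0.0356 averaged). These moved in opposite directions, and Alb, which defines hepatocytes, stood at 12.80, 13.13, 13.08 and 12.81 in EC and at 14.21, 14.22, 11.85 and 13.67 in KC without a call (adjusted p = 0.604). The hormone gene Hamp, hepcidin, was 7.90-fold lower (adjusted p = 0.0287) and lost its call without KC replicate 4. The mean level of the list was 7.89 to 8.11 in EC, 9.22 and 9.10 in KC replicates 1 and 2, 7.62 in replicate 3 and 8.34 in replicate 4. The part of hepatocyte RNA was not tested.

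Lymphocyte markers differed among the KC channels. Of 12 T and NK genes, 2 were called lower and 0 higher (3 and 0 without KC replicate 4). With averaged channels 0 were called, and 1 was lower and 1 higher at an unadjusted p under 0.05. Gzma, a granule protease, stood at 11.10, 10.95, 10.96 and 11.17 in EC and at 6.20, 6.43, 9.79 and 10.22 in KC, and was not called (adjusted p = 0.102). KC replicates 1 and 2 were low and KC replicates 3 and 4 close to EC. Gzmb followed the same order and was called lower (-3.12 ± 0.74, adjusted p = 0.00257, and 0.112 averaged), as was the interleukin-2 receptor chain Il2rb (-2.50, adjusted p = 0.02, and 0.294 averaged). Il2rb was well above background in only 1 KC channel. The mean level of the list was 7.38 to 7.58 in EC, 5.73 and 5.65 in KC replicates 1 and 2, and 7.13 and 7.07 in KC replicates 3 and 4. Nkg7, a granule protein of the same cells, was 0.57 by its brightest probe without a call, and -2.52 with a call (adjusted p = 0.0389) by its most variable probe.

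Of 8 B and plasma cell genes, 2 were called higher and 1 lower (1 and 1 averaged, 2 and 1 without KC replicate 4). Cd22, an inhibitory receptor of B cells, was 5.52-fold higher in KC (adjusted p = 4.58e-07, and 0.00152 averaged), with no overlap. Igj, the joining chain of polymeric immunoglobulin, stood at 11.22, 11.08, 11.06 and 11.34 in EC and at 7.80, 7.71, 9.47 and 8.25 in KC and was 7.30-fold lower (adjusted p = 5.66e-08, and 0.00065 averaged). The receptor chains Cd79a (0.21) and Cd79b (-0.29) and the surface protein Ms4a1 (-0.58), which define B cells, were not called. The transcription factor gene Pax5 was not well above background in any EC channel and in 1 KC channel, and was at least 1.04-fold higher (adjusted p = 0.0299, and 0.174 averaged).

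Of 12 neutrophil genes, 2 were called higher and 0 lower (2 and 0 without KC replicate 4). With averaged channels 0 were called and 3 were higher at an unadjusted p under 0.05. S100a8, a calcium-binding protein of neutrophils and monocytes, stood at 8.02, 7.72, 7.59 and 8.03 in EC and at 10.56, 10.56, 10.98 and 12.25 in KC (3.25 ± 0.85, adjusted p = 0.00638, and 0.122 averaged). Its partner S100a9 stood at 9.79, 9.73, 9.86 and 12.84 in KC, above EC throughout but without a call (adjusted p = 0.235), with KC replicate 4 far above the rest. Csf3r, the G-CSF receptor, was 2.01-fold higher (adjusted p = 0.00571, and 0.0958 averaged). It stood at 14.96, 15.29, 15.97 and 14.21 in KC and between 13.95 and 14.29 in EC, so that the groups overlapped. Its call was lost without KC replicate 3 (0.72) and in the fit of the 8 channels alone (adjusted p = 0.0817). Of 8 dendritic cell genes, 2 were called higher and 1 lower (1 and 0 averaged, 2 and 1 without KC replicate 4). Ccr7, a chemokine receptor of migrating cells, was 2.13-fold higher, Xcr1, a chemokine receptor of cross-presenting dendritic cells, was at least 1.06-fold higher with no EC channel well above background, and Clec9a, a receptor for dead cells, was 5.55-fold lower (adjusted p = 0.00988, 0.00221 and 0.0029). Only Xcr1 held averaged (adjusted p = 0.0195), and it lost its call without KC replicate 4. Xcr1 was well above background in only 1 KC channel.

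Of 8 erythroid genes, 1 was called higher and 0 lower. With averaged channels, and also without KC replicate 4, 0 were called, and 1 was higher at an unadjusted p under 0.05 with averaged channels. Hbb-b1, a globin gene, stood at 8.78, 9.86, 9.27 and 8.95 in EC and at 11.35, 11.20, 11.91 and 11.33 in KC (2.23 ± 0.78, adjusted p = 0.0411, and 0.194 averaged). Hba-a1, the partner globin, was 1.95 without a call (adjusted p = 0.0797), and no channels of the groups overlapped in either gene. Of 6 cholangiocyte genes, 1 was called higher, Spp1, osteopontin, which macrophages also express (1.76, adjusted p = 0.00996, and 0.148 averaged). The keratin Krt7, which defines cholangiocytes, was not well above background in any channel, and Krt19 and Epcam were so in 2 and 1 of the EC channels and in 0 of the KC channels. Of the 15 cell cycle genes, limma and the methods' t-test each called 0, and 2 were higher at an unadjusted p under 0.05, with a median of -0.37. The part of these cells in the differences was not tested.

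**Figure D5:**
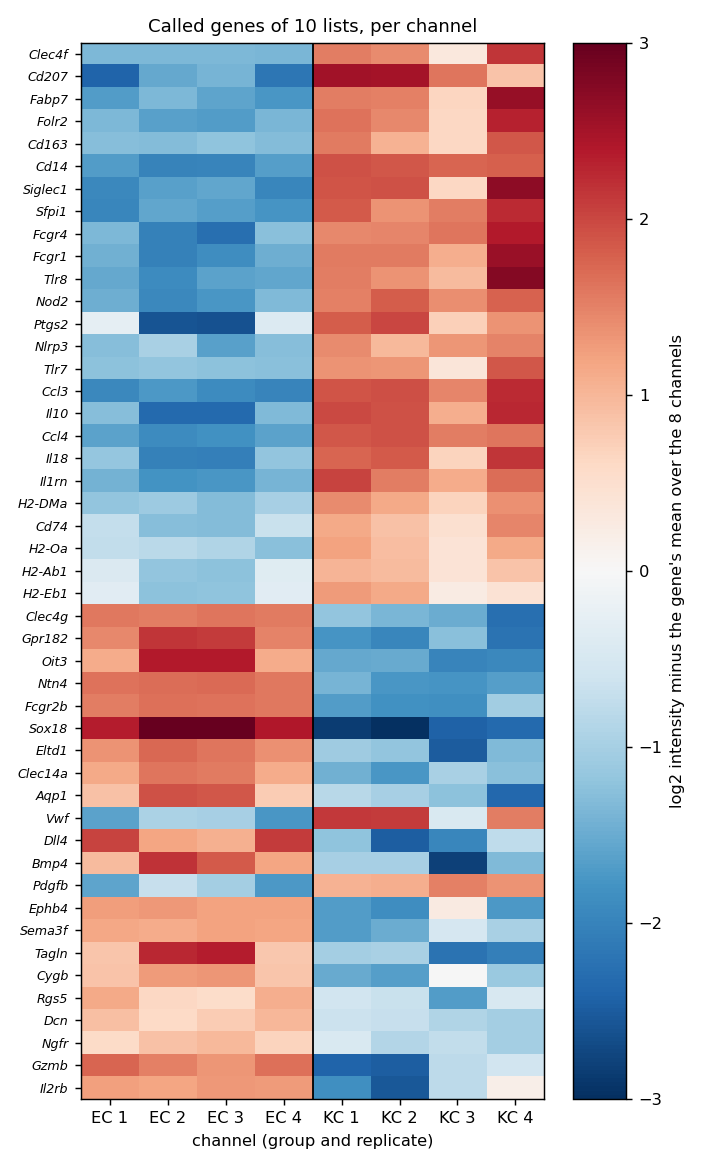
Log2 intensity minus the gene's mean over the 8 channels (color scale, limited to -3 to 3) for 47 called genes of 10 lists (rows, up to 5 a list) in each control EC and KC channel (columns). The Kupffer and inflammatory genes at the top are red in KC and the endothelial and stellate genes below them are blue in KC, except Vwf, Pdgfb and, in KC replicate 3, Ephb4 and Cygb, with KC replicate 3 the palest for many genes and KC replicates 1 and 2 the lowest for Gzmb and Il2rb.

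Of 15 immediate early and heat shock genes, 3 were called higher and 1 lower (3 and 0 averaged, 3 and 0 without KC replicate 4). Fos, part of the AP-1 factor, stood at 8.90, 8.15, 8.24 and 8.97 in EC and at 11.28, 11.30, 10.84 and 11.50 in KC (2.67 ± 0.51, adjusted p = 0.000319, and 0.0422 averaged). Zfp36, which destabilizes cytokine mRNA, was 4.76-fold higher (adjusted p = 1.18e-06, and 0.0027 averaged), and the phosphatase Dusp1 was 3.09-fold higher (adjusted p = 4.96e-06, and 0.00294 averaged). The small heat shock gene Hspb1 stood at 15.19, 13.34, 13.31 and 15.07 in EC and at 11.76, 11.67, 13.61 and 11.48 in KC. It was called lower (-2.10 ± 0.62, adjusted p = 0.0146), although KC replicate 3 lay within the EC range, and lost its call without KC replicate 4. Jun (-0.41) and Hspa8 (-0.02) were not called. The median of the list was -0.02, and 0.34 when channels were scaled to their 75th percentile.

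The largest differences of the whole table were not all in genes of these lists. The largest rises were in Nhlh1, a helix-loop-helix factor known from neurons, and in Cd300a, an inhibitory receptor of myeloid cells. Nhlh1 stood at 8.21, 8.57, 8.32 and 8.13 in EC and at 13.98, 13.98, 11.58 and 15.46 in KC (5.44 ± 0.79, 43.4-fold, adjusted p = 1.12e-05, and 0.00896 averaged), and both of its probes agreed in sign. Cd300a stood at 6.67, 6.56, 6.53 and 6.45 in EC and at 12.21, 12.05, 10.07 and 13.26 in KC (5.34 ± 0.70, 40.6-fold, adjusted p = 2.65e-06, and 0.0046 averaged). In both, KC replicate 3 was the lowest and KC replicate 4 the highest KC channel. Tnfsf4, the ligand of the T cell receptor OX40, stood at 4.67, 5.29, 5.22 and 4.78 in EC and at 10.92, 10.95, 9.33 and 9.57 in KC (5.20 ± 0.55, adjusted p = 1.22e-07, and 0.00102 averaged). Calca, the gene of calcitonin and CGRP, was 4.67, the anion exchanger Slc26a4 was 4.64, the serotonin transporter Slc6a4 was 4.63, Dcstamp, a fusion protein of osteoclasts and macrophages, was 4.6, and Prss46, a serine protease, was 4.6. Npcd (4.88) and Abca17 (4.6) also belong to the 10 largest, but each has a second probe of the opposite sign. In EC, Calca was well above background in 1 channel, Prss46 in 2 and Slc26a4, Slc6a4 and Dcstamp in 3. All 10 kept their call with averaged channels and without KC replicate 3 or 4.

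Among the 10 genes with the largest fitted falls was Id4, an inhibitor of helix-loop-helix factors. It stood at 12.45, 11.92, 11.91 and 12.47 in EC and at 7.54, 7.50, 4.10 and 5.99 in KC, 59.8-fold lower (-5.90 ± 0.61, adjusted p = 8.32e-08, and 2.6e-05 averaged). Id4 was well above background in 3 KC channels. Sox18, given above, was also among the 10 but has only a bound. Dkk3, a secreted protein of the Dickkopf family, stood at 13.87, 13.27, 13.27 and 13.80 in EC and at 8.04, 8.04, 9.35 and 7.50 in KC (-5.32 ± 0.97, adjusted p = 0.000201, and 0.0383 averaged). Every KC channel of Id4 and Dkk3 was far below every EC channel. The paired keratins Krt18 and Krt8 of simple epithelia were both among the 10. Krt18 stood at 12.30, 12.22, 12.32 and 12.26 in EC and at 8.53, 8.50, 8.85 and 7.03 in KC (-4.05 ± 0.79, adjusted p = 0.000416, and 0.0378 averaged), and Krt8 was 14-fold lower (adjusted p = 0.00254), a call that was lost averaged (adjusted p = 0.0914). Spns2, which exports sphingosine 1-phosphate from endothelium, lay between 10 and 10.39 in EC and between 6.08 and 6.63 in KC (-3.84 ± 0.27, adjusted p = 1.49e-10, and 1.96e-05 averaged). The chemokine Xcl1 was at least 3.35-fold lower and Disp2, a relative of the Hedgehog exporter, at least 2.58-fold lower, with no KC channel well above background, and Xcl1 lost its call averaged (adjusted p = 0.116). Of the 3 probes of Disp2, 1 had the opposite sign. Galntl2 (-3.79), a glycosyltransferase, and Endou (-3.78), an endoribonuclease, completed the 10, with 2 and 3 KC channels well above background.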

How the data were processed

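The mRNA of 4 control Kupffer and 4 control endothelial samples was read from 2-colour Agilent arrays, each sample in the Cy3 channel. The deposited scanner output holds an intensity for every spot in either dye (Agilent Feature Extraction 10.7.3.1, which names the probes and gives mm9 coordinates). The authors also deposited quantile-normalized linear intensities by probe and sample, of which log2 was taken here. Each sample's column was checked against its own scanner channel (r of at least 0.9999), and the column medians lay between 4.22 and 4.25 on the log2 scale. The 8 groups were fitted with limma 3.58.1 (lmFit, eBayes; R 4.3.3) over all 32 channels, and the contrast KC minus EC was adjusted by Benjamini-Hochberg over 55681 probes. A gene was read from the probe with the highest mean over all channels; 28258 probes without a gene name were counted only, and 1296 and 1049 of them were called higher and lower. Of the 19160 names, 19011 are RefSeq symbols or synonyms. A fold given as "at least" is used where no channel of the dimmer group was well above background, and sets the brighter mean against the dimmest level well above background, after normexp with an offset of 50, loess and Aquantile. Differences of probes near background are compressed.

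The 23 gene lists, the comparison and the rule for named genes were chosen with earlier results of these data known. Named are the markers and purity stains, up to 5 called genes of each list by size and 3 uncalled ones by level, all genes of a list with at most 3 called, and the 10 largest rises and 10 largest falls among called genes well above background in the higher group whose groups do not overlap. Of the genes this rule takes, some are given only in the counts. Cxcl9, Il1a, Vegfa, Clec1b, Scarb2, Cd209a, Lrat and Tie1 were named after their values were seen. Hspa1b matched no probe name. Alternatives were other background corrections and normalizations, a filter on dim probes, the array or the replicate number as a block, the 8 channels alone, the methods' t-test, other thresholds, another probe a gene, each channel left out, and, added after seeing the data, averaged near-identical channels. Steps were tested on simulated data. The number of arrays limits the precision. Tools were the R package data.table (version 1.17.8), Python 3.11.15, numpy 2.4.6, pandas 2.3.3 and matplotlib 3.10.9. Other data types of the study were not analysed here.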

Additional observations from a re-analysis of the deposited data

Results flagged for a closer look

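A channel whose gap to its nearest neighbour exceeded Dixon's 95% limit for 4 samples, as a share of the range of the group, was looked for in 323 pairs of a named gene and a group and in 46 mean levels of lists. It was found in 24 gene pairs (7.43%) and in 1 list level, and chance gives about 1 in 20 for 4 independent channels. The channel was KC replicate 3 in 16 of the gene pairs and KC replicate 4 in 5, and 3 were in EC. KC replicates 1 and 2 and both EC pairs are near-identical channels, so that the 4 channels of a group are not independent and the rate of 1 in 20 need not apply. No cause was tested.

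The mean level of the immediate early and heat shock list was 12.29 in KC replicate 3 and 11.77 to 11.81 in the others (gap 0.923 of the range), and within it Hspb1 was high in that channel (0.866). KC replicate 3 was the low channel for Stab2 (0.864), Cd68 (0.871), the complement genes Cfb (0.846) and C2 (0.931), the lysosomal enzymes Gusb (0.903) and Ctss (0.844), Casp1 (0.888), Tfpi (0.841), the fibrinogen chain Fgb (0.848), Rgs5 (0.837), Spp1 (0.929) and the anion exchanger Slc26a4 (0.978). It was the high channel for Nod1 (0.846), Ephb4 (0.916) and Ccr7 (0.979), the last at 13.73 against 12.60 to 12.62.

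The channel labelled KC replicate 4 was the high one for Fcgr4 (0.834), C5ar1 (0.947), Hfe (0.9) and S100a9 (0.958), the last at 12.84 against 9.73 to 9.86, and the low one for Krt8 (0.88). In EC, replicate 2 was high for Ccl7 (0.856), replicate 1 low for Ass1 (0.853) and replicate 4 low for Elane (0.946); the whole ranges of these were 0.39, 0.18 and 0.16.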

How the results depend on the processing

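The counts of probes called higher and lower were 3486 and 3483. They moved by more than 1.5 times with normexp and quantile normalization (2191 and 1680), with normexp, loess and Aquantile (2213 and 1751), with near-identical channels averaged (1874 and 1767), with these averaged and KC replicate 4 left out (1478 and 1151), and at an adjusted p under 0.001 and 4-fold (1050 and 413). With no minimum fold, the lower count moved to 6736 (4983 higher). Leaving out each channel in turn gave 3048 to 3657 higher and 2896 to 3507 lower. Of 180 named genes, 110 were called, 62 with averaged channels and 44 with KC replicate 4 left out as well, and 100 to 106 with 1 channel left out. In a fit of the 8 channels alone 120 of them were called, with 16 calls gained and 6 lost. Of the list genes, 162 were called, 67 averaged, 40 with KC replicate 4 left out as well, and 138 to 161 with 1 channel left out. The averaged settings have fewer samples by construction; the cause of the other moves was not tested. The only reversed difference was that of Nkg7, from 0.57 (not called) to -2.52 with the most variable probe. The other scalings, fits and tests kept the counts of probes within 1.5 times, and over the scalings the share of higher calls lay between 49.2 and 56.6%. The replicate numbers did not pair the samples (r of the deviations 0.0607, -0.237, 0.164 and 0.00994 for numbers 1 to 4), and with the replicate block 2946 and 2809 probes, 110 named genes and 159 list genes were called. The median over genes was 0.05 with the 75th percentile and -0.05 as deposited. Near background, 578 probes called higher and 595 called lower had no channel of the dimmer group well above it, so that only a bound was measured there.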

Other observations

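Some list genes differed by more than 2-fold within a cell type. They were chosen after their values were seen, and the differences within a group were not tested. Among the EC channels, 0.0651% of 12288 genes differed by more than 2-fold between replicates 1 and 4, 0.374% between replicates 2 and 3, and 3.07% between the means of these pairs. Apln, the vascular ligand apelin, stood at 6.39, 9.04, 8.95 and 6.33 in EC replicates 1 to 4, and Col1a1, a fibrillar collagen chain, at 7.17, 8.54, 8.53 and 7.20. Both were higher in replicates 2 and 3. Nos2, the inducible nitric oxide synthase, went the other way at 13.60, 11.67, 11.81 and 13.43.

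Among the KC channels, Arg1, an arginase of the urea cycle and of some macrophages, stood at 9.41, 9.44, 8.80 and 12.34, so that the channel labelled KC replicate 4 was far above the rest and the comparison with EC gave no call (1.11, adjusted p = 0.622). Kdr, a VEGF receptor of endothelium, stood at 11.61, 11.71, 13.91 and 11.87 in KC and between 11.75 and 11.96 in EC. KC replicate 3 was the highest of the 8 channels for this endothelial gene, which was not called (0.41, adjusted p = 0.562).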
